A study of Mus musculus with 12 samples.

Results

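The Cyp4 genes encode cytochrome P450 enzymes that add a hydroxyl group to the far end, the omega carbon, of fatty acids and of arachidonate-derived lipids. The 10 genes followed here were taken by name from the table of read counts: Cyp4a10, Cyp4a12a, Cyp4a12b, Cyp4a14, Cyp4a31, Cyp4a32, Cyp4b1, Cyp4f13, Cyp4f14 and Cyp4v3. They are 10 of the 55401 genes in that table, listed by family name with earlier results of these data known. The table covers livers of 12 female mice on a C57BL/6J background, 15 weeks old and fed standard chow. Of these, 6 carried iTgMir483, a Tet-off transgene for the microRNA gene Mir483 driven by a transactivator expressed from the Rosa26 locus, and 6 were control littermates. Doxycycline, which silences the transgene, was given to the mothers during pregnancy and withdrawn at birth, so Mir483 was over-expressed from birth onwards. The cassette that had blocked the transactivator was removed with a ubiquitously active CMV-Cre, so expression was not limited to hepatocytes or to liver. The labels give the livers separate numbers, and do not say which mice shared a litter.

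In liver, members of the Cyp4a subfamily work mainly on medium- and long-chain fatty acids. The omega-hydroxylated product is oxidised by alcohol and aldehyde dehydrogenases to a dicarboxylic acid, which enters β-oxidation in peroxisomes. Cyp4a10 and Cyp4a14 are classical target genes of the nuclear receptor PPARα, which is activated by fatty acids and by fasting. Cyp4a12a is the member known to be high in male mouse liver and kidney, Cyp4f enzymes inactivate leukotrienes and other eicosanoids, and Cyp4v3 is the mouse counterpart of a human omega-hydroxylase of the endoplasmic reticulum.

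All 10 members share a short coding stretch that specifies the heme-binding signature of P450 enzymes, with the cysteine that holds the heme iron. It is shown because it places each member in the family and shows how close the copies are. The 30 coding bases are read 5′ to 3′ from GENCODE transcripts (GRCm38), with the cysteine codon in capitals. In every member they are spliced across an intron, so that the first and last base lie further apart in the genome than 30 bases.

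Cyp4a14: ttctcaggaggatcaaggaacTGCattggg

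Cyp4a12a: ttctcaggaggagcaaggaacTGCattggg

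Cyp4a12b: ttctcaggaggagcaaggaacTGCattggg

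Cyp4a10: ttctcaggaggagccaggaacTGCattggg

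Cyp4a31: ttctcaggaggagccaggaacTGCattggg

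Cyp4a32: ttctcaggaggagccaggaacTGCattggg

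Cyp4b1: ttttctgcagggcccaggaatTGCattggg

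Cyp4f13: ttctcagcggggaccaggaacTGCatagga

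Cyp4f14: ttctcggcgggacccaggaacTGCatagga

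Cyp4v3: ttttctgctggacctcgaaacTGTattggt

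The stretch ran from chr4:115487299-115489805 in Cyp4a14 (minus strand) and chr4:115529502-115532543 in Cyp4a10 (plus strand), in both cases across exons 11 and 12. Compared with Cyp4a14, it differed at 1 base in Cyp4a12a and Cyp4a12b, at 2 bases in Cyp4a10, Cyp4a31 and Cyp4a32, at 7 bases in Cyp4b1, Cyp4f13 and Cyp4f14 and at 10 bases in Cyp4v3. The intron fell after base 17 of the stretch in 9 members and after base 28 in Cyp4v3. Over the whole coding sequence the copies fell into the same groups: Cyp4a12a and Cyp4a12b were 98.5% identical, Cyp4a10 was 97.2% identical to Cyp4a32 and 96.6% to Cyp4a31, and Cyp4a14 was 76.8% identical to Cyp4a10. The Cyp4f pair shared 78.4% of bases, and Cyp4v3 and Cyp4b1 were the least alike at 56.6%.

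This likeness bears on what a count means. Of all 50-base windows of Cyp4a12a transcripts, 48.9% occurred letter for letter in Cyp4a12b. For Cyp4a32 43.8% of windows occurred in another gene (Cyp4a10 or Cyp4a31), for Cyp4a10 29.8% and for Cyp4a31 20.6%, part of the last in repeats found in many genes. For Cyp4a14 it was 0.235%, all in a pseudogene, and for Cyp4f13 and Cyp4f14 1.11% and 2.39%. Reads were 50 bases from each end, and how reads matching several genes were counted is not given in the sources used here. Splits between Cyp4a12a and Cyp4a12b, and among Cyp4a10, Cyp4a31 and Cyp4a32, are therefore uncertain, and the sums over such copies are given as well.

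The members lie at 3 places in the genome. Cyp4a12a (chr4:115299046-115332815), Cyp4a12b (chr4:115411624-115439034), Cyp4a14 (chr4:115486200-115496142), Cyp4a10 (chr4:115518264-115533649), Cyp4a31 (chr4:115563649-115579015), Cyp4a32 (chr4:115600969-115621602) and Cyp4b1 (chr4:115624725-115647723) form 1 cluster on chromosome 4. Cyp4f14 (chr17:32905070-32917342) and Cyp4f13 (chr17:32924688-32947402) are neighbours on chromosome 17. Cyp4v3 (chr8:45304944-45333216) stands alone on chromosome 8, and shares exon sequence with the overlapping gene model Gm45753 on the same strand (7.02% of its windows). Cyp4a12b overlaps a processed pseudogene on the opposite strand, and no other member overlaps an annotated gene.

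Control libraries held 12244123 to 30431286 counts, and those of iTgMir483 livers 12415140 to 15846175. Mir483 itself had 0 counts in every control and 318 to 761 counts in the transgenic livers, as the labels give. Xist was present in all 12 libraries and Ddx3y, Uty, Kdm5d and Eif2s3y were at 0 in all of them, as in females. Hepatocyte markers were abundant in every library, with a sum of 62600 to 168000 CPM over 7 genes. CPM here means read counts brought to a common library size with TMM factors. Control replicate 1 stood apart from the other controls, and calls that change without it are given both ways. It had the highest level among controls for 11 of 12 male-biased liver genes, the lowest for 18 of 18 female-biased genes, and the lowest for 25 of 27 PPARα target genes. iTgMir483 replicate 1 was the highest of its group for 7 of the 12 male-biased genes and the lowest for 16 of the 27 PPARα targets.

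By these counts Cyp4a14 had the highest level of the members in control liver. Among the 8 members that could be tested, it had the largest fold change between groups. The count of Cyp4a10, the next member, may be lowered by its shared sequence, which was not corrected for. Per kb of exon, a scale on which genes can be compared, Cyp4a14 had 3741 ± 1455 CPM per kb in controls (SD, n = 6). It ranked number 15 of the 13205 genes tested. In iTgMir483 livers it had 643.9 ± 398.9 CPM per kb (SD, n = 6) and ranked number 66. The control libraries 1 to 6 had 2104, 11777, 11885, 11314, 10199 and 11107 CPM of Cyp4a14. The iTgMir483 libraries 1 to 6 had 603.1, 2102, 2342, 123.0, 2320 and 2559 CPM. Of the controls, 5 lay between 10200 and 11900 CPM, above every iTgMir483 liver, and control replicate 1 lay among the iTgMir483 values. iTgMir483 replicate 4 was the lowest of all, with 1679 counts. In the fit Cyp4a14 fell 5.81-fold, or -2.54 ± 0.590 on the log2 scale (± SE, adjusted p = 0.00926). Here and in what follows, log2 fold changes of iTgMir483 against Control are given ± SE, and adjusted p-values come from the quasi-likelihood test of edgeR, with Benjamini-Hochberg adjustment over all tested genes. The two-sided exact permutation test over assignments of livers gave p = 0.0087 for Cyp4a14 alone.

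A gene counted as changed if its adjusted p was below 0.05 and it differed more than 1.5-fold. By this rule 1470 of 13205 genes changed, 11.1%, with 360 lower (2.73%) and 1110 higher (8.41%) in iTgMir483 livers. Of the 10 members 8 passed the filter on low counts, and Cyp4a12a and Cyp4a12b did not. Cyp4a14 was the 1 member that fell and 0 members rose. All 8 tested members had a log2 fold change below 0, against 49.2% of all genes tested, and their median was -0.54 beside 0.01 over all genes. Not all Cyp4 genes went this way: of those tested outside the list, Cyp4f16 and Cyp4f18 were above 0 and Cyp4f15 and Cyp4f17 below. Cyp4a10, Cyp4a31 and Cyp4a32 share part of their sequence, so the signs of the members are not independent. Because these are whole livers, fewer cells of a type and less RNA per cell cannot be told apart.

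**Figure D1:**
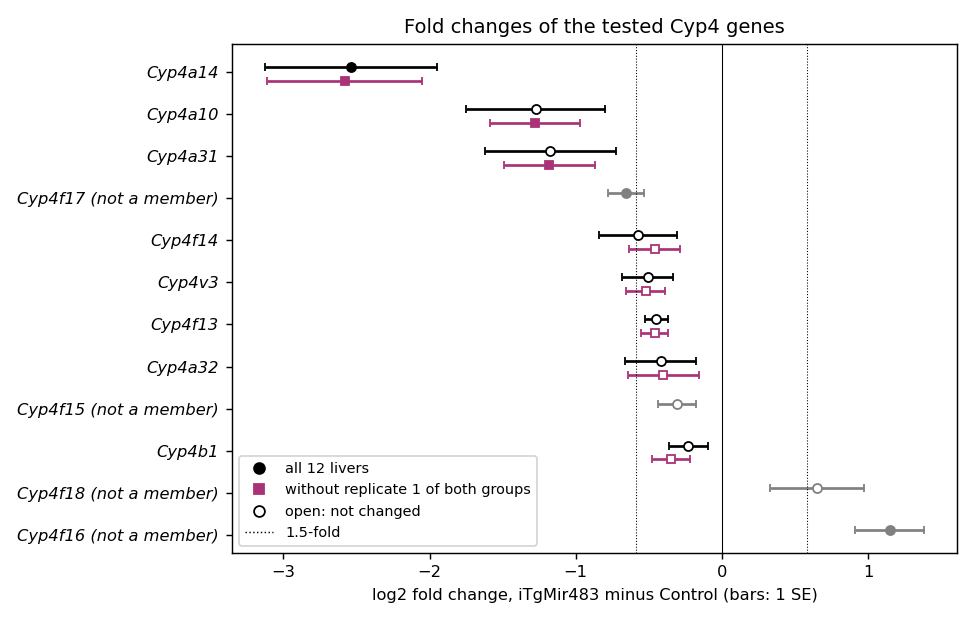
Log2 fold change (iTgMir483 minus Control, bars 1 SE) of the 8 tested members (black) and of 4 further tested Cyp4 genes (grey) in all 12 livers, with purple squares for the members without replicate 1 of both groups. Filled symbols passed the call; Cyp4a14 is at -2.54 in all livers, and Cyp4a10 and Cyp4a31 are filled only without the livers numbered 1.

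Cyp4a10, the other PPARα-induced member at a high level, had 2616 ± 1033 CPM per kb in controls and 1082 ± 619.5 in iTgMir483 livers (SD, n = 6 each). Its control libraries 1 to 6 had 1224, 5483, 6922, 6033, 6460 and 6987 CPM. Its iTgMir483 libraries had 520.2, 2726, 3021, 737.9, 3172 and 3512 CPM. All 6 iTgMir483 livers were below the control median, and control replicate 1 lay among them. Over all 12 livers it did not pass, at -1.27 ± 0.476 (adjusted p = 0.0758). Without control replicate 1 it passed at -1.48 ± 0.410 (adjusted p = 0.0222), and without replicate 1 of both groups at -1.28 ± 0.309 (adjusted p = 0.012). With all 12 livers and a block for the replicate number it passed too (adjusted p = 0.00566). The call thus depends on that library and on the model. Without replicate 1 of both groups Cyp4a10 had 6377 ± 631 CPM in controls and 2634 ± 1100 CPM in iTgMir483 livers (SD, n = 5). This leaves out the control that lay among the iTgMir483 values.

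Cyp4a31, a close copy of Cyp4a10, was present at a far lower level. The controls had 25.4, 96.5, 139.4, 84.5, 161.0 and 98.0 CPM and the iTgMir483 livers 11.9, 41.7, 56.5, 18.7, 51.3 and 87.8 CPM. The same livers, replicate 1 of both groups and iTgMir483 replicate 4, were low in Cyp4a31 as in Cyp4a10. Cyp4a31 stood at -1.17 ± 0.448 (adjusted p = 0.0815), and at -1.18 ± 0.312 (adjusted p = 0.018) without replicate 1 of both groups. It also passed without control replicate 1 (-1.38 ± 0.389, adjusted p = 0.0244). Given the share of identical windows, part of these reads may belong to Cyp4a10, which was not tested.

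Cyp4a32 had 41.0, 48.3, 49.1, 46.9, 67.6 and 82.8 CPM in controls and 27.1, 43.4, 27.2, 75.3, 41.2 and 36.6 CPM in iTgMir483 livers. Here iTgMir483 replicate 4, the liver with the least Cyp4a14, had the most Cyp4a32 of its group. Cyp4a32 stood at -0.42 ± 0.241 (adjusted p = 0.242), and among the alternatives it passed only without that liver (-0.67, adjusted p = 0.0288). No untranslated region is annotated for Cyp4a32, so its level per kb rests on 1536 bases. Summed over Cyp4a10, Cyp4a31 and Cyp4a32, controls had 5675 ± 2226 CPM and iTgMir483 livers 2368 ± 1325 CPM (SD, n = 6).

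The balance between the main members differed between groups. Per kb, Cyp4a14 stood above Cyp4a10 in 6 of 6 controls, with ratios of 1.39, 1.74, 1.39, 1.52, 1.28 and 1.29. It stood below Cyp4a10 in 6 of 6 iTgMir483 livers, with ratios of 0.940 in replicate 1, 0.135 in replicate 4 and up to 0.629 in the others, which lay close together. The ratios did not overlap, and control replicate 1, low in both genes, had a ratio inside the range of the other controls. Of the 50-base windows of Cyp4a10 29.8% occur in another gene, against 0.235% for Cyp4a14. Reads left out or split for this reason would lower Cyp4a10 more than Cyp4a14. Which of the 2 genes stands higher in controls is therefore uncertain. Of all Cyp4a reads, Cyp4a14 made up 60.4% to 67.7% in controls and 12.9% to 51.8% in iTgMir483 livers. The 6 Cyp4a members together took 0.345% of the scaled library in control replicate 1 and up to 1.9% in the other controls, against 0.0955% to 0.62% in iTgMir483 livers.

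**Figure D2:**
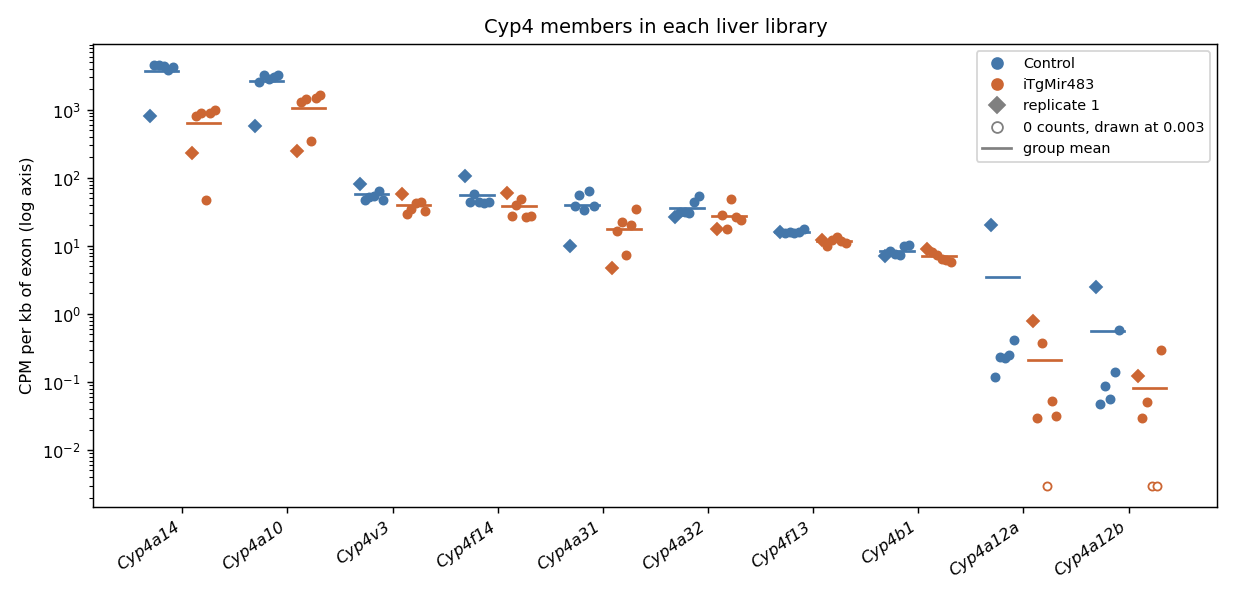
Level of each member in each library, in CPM per kb of exon on a log axis, for Control (blue) and iTgMir483 (orange) livers with the group mean as a line, replicate 1 as a diamond and libraries with 0 counts as open circles at the foot of the axis. Cyp4a14 and Cyp4a10 sit far above the other members, and control replicate 1 lies low for Cyp4a14, Cyp4a10 and Cyp4a31 and high for Cyp4a12a, Cyp4a12b, Cyp4f14 and Cyp4v3.

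Cyp4a12a and Cyp4a12b, nearly identical genes, were close to absent except in 1 liver. Cyp4a12a had 774 counts in control replicate 1, and 5, 8, 16, 9 and 11 counts in control replicates 2 to 6. The iTgMir483 libraries 1 to 6 had 26, 1, 15, 0, 2 and 1 counts of Cyp4a12a. Cyp4a12b had 95 counts in control replicate 1, 2, 3, 4, 5 and 15 in the other controls, and 4, 1, 2, 0, 0 and 9 in iTgMir483 livers. As a sum, the pair made 54.5 CPM in control replicate 1, 0.403 to 2.38 CPM in the other controls and 0 to 2.18 CPM in iTgMir483 livers, with iTgMir483 replicate 1 the highest of its group. Without the filter on low counts Cyp4a12a passed the call at -4.05 ± 1.18 (adjusted p = 0.0357). With no filter and control replicate 1 left out, an alternative chosen after seeing the counts, it did not, at -0.21 ± 0.683 (adjusted p = 0.882).

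The liver with high Cyp4a12a was also the control with high levels of other genes known to be male-biased in mouse liver. Hsd3b5, a male-specific steroid dehydrogenase, had 30.5 CPM in control replicate 1 and 0.0575 to 0.205 CPM in the other controls. Mup20, a male pheromone carrier of the major urinary proteins, had 437.0 CPM against 11.7 to 35.2 CPM. The female-biased sulfotransferase gene Sult2a1 had 0.188 CPM there and 277.0 to 749.0 CPM in the other controls. As a sum, 12 male-biased genes had 1840 CPM in control replicate 1 and 190.0 to 340.0 CPM in the other controls, and 18 female-biased genes had 597.0 CPM against 3050 to 3630 CPM. iTgMir483 livers had 110.0 to 360.0 CPM of the male-biased and 1640 to 2440 CPM of the female-biased genes. The part of this pattern in the Cyp4 values was not tested.

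**Figure D3:**
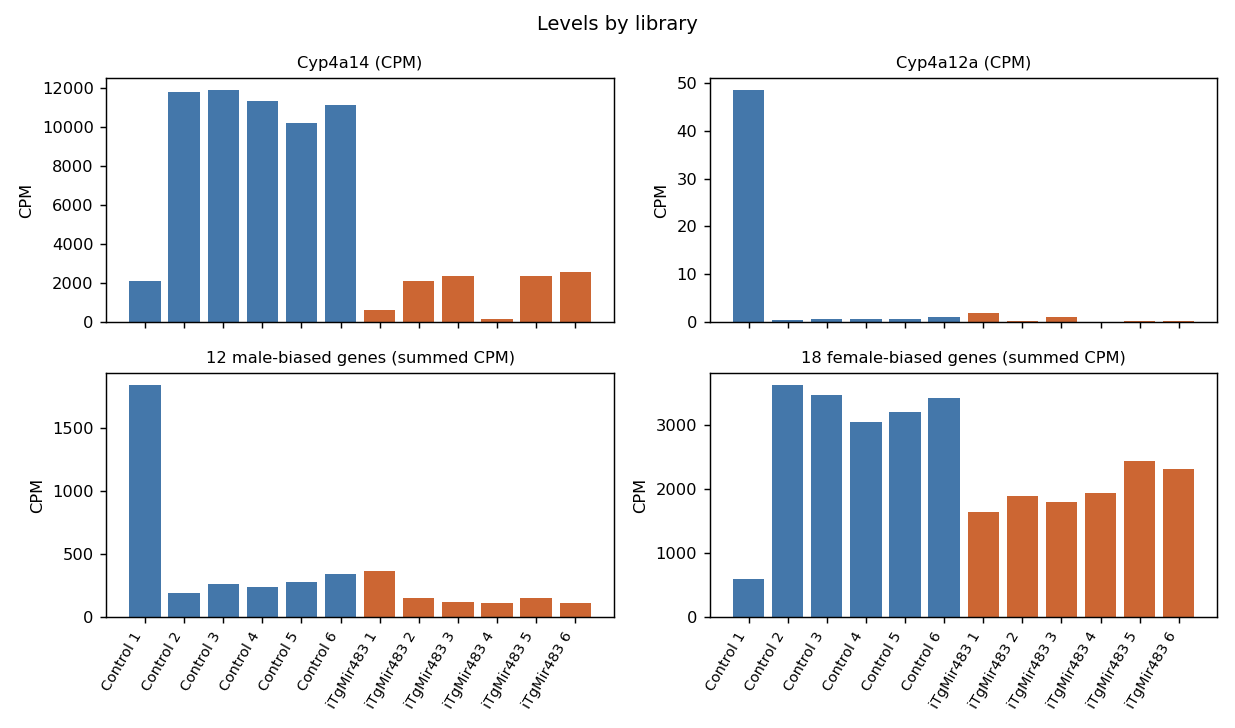
Bars give the CPM of Cyp4a14, the CPM of Cyp4a12a and the summed CPM of 12 male-biased and of 18 female-biased liver genes in each of the 12 libraries (linear axes from 0, Control blue, iTgMir483 orange). Control replicate 1 is high for Cyp4a12a and the male-biased sum and low for Cyp4a14 and the female-biased sum, while the iTgMir483 livers are low for Cyp4a14 with a male-biased sum of at most 360 CPM.

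Of the male-biased genes 6 of 10 tested fell and 0 rose, against 2.73% of all genes lower, and the median log2 fold change was -2.23. The largest falls were of Mup7 (log2 fold change -8.22), the transporter gene Slco1a1 (-6.23), the fatty acid elongase gene Elovl3 (-2.96) and Selenbp2 (-2.59). Without control replicate 1, which was high in these genes, the same genes stood at -5.18, -5.01, -2.33 and -2.02, and the median of the list at -1.50. Mup7 and Slco1a1 were near 0 in iTgMir483 livers, with means of 0.17 and 0.57 CPM, so the size of their falls is uncertain. Mup7 did not pass with DESeq2, and Slco1a1 did not pass with limma-voom. Of the female-biased genes 4 of 18 fell and 0 rose, with a median of -0.57, which was 0.05 with limma-voom. Among these were Sult3a1 (-6.11), Cyp3a44 (-4.20) and A1bg (-2.73). Without control replicate 1 the counts were 5 of 10 lower and 1 higher for the male-biased and 8 of 18 lower for the female-biased list. Of all genes 3.20% were lower without that liver.

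Cyp4f13 gave the most even values of all members and separated the groups in full. Controls had 71.1, 69.2, 70.6, 69.0, 72.3 and 77.5 CPM and iTgMir483 livers 54.2, 44.6, 53.7, 59.6, 53.2 and 49.6 CPM. The lowest control stood above the highest iTgMir483 liver, a pattern found in this direction in 2.83% of all genes. The coefficient of variation was 4.38% in controls, where that of Cyp4a14 was 38.9% and the median over all tested genes 16.1%. Cyp4f13 stood at -0.45 ± 0.0795 (adjusted p = 0.00231), past the adjusted p and under the 1.5-fold limit, so it was not counted as changed. The exact permutation p of Cyp4f13 was 0.0022, the smallest that the design allows. Of all genes 7.33% were lower at this adjusted p with no limit on fold.

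Cyp4f14, the neighbour of Cyp4f13 and its closest relative among the members, behaved differently across livers. It had 259.6, 107.5, 142.6, 106.1, 103.3 and 105.3 CPM in controls and 143.3, 65.7, 97.8, 118.0, 63.8 and 65.9 CPM in iTgMir483 livers. Replicate 1 was the highest liver of both groups, whereas for Cyp4a14 it was the lowest control and the second lowest iTgMir483 liver. The log2 fold change of Cyp4f14, -0.57 ± 0.266 (adjusted p = 0.147), shrank to -0.29 (adjusted p = 0.343) without control replicate 1. It was -0.74 without iTgMir483 replicate 1, and -0.46 (adjusted p = 0.082) without replicate 1 of both groups. With a block for the replicate number the adjusted p was 0.0155, the 1 alternative of 21 below 0.05. Cyp4f14 passed the call in 0 of the 21.

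Cyp4v3 had 312.1, 178.8, 198.0, 204.3, 243.0 and 182.2 CPM in controls and 222.6, 113.0, 132.9, 164.3, 167.6 and 126.3 CPM in iTgMir483 livers. Here too replicate 1 was the highest of both groups, and 5 of 6 iTgMir483 livers lay below every control. With -0.51 ± 0.177 (adjusted p = 0.0582) it did not pass over all livers. Cyp4v3, leaving out control replicate 1, its highest liver, stood at -0.38 (adjusted p = 0.107). It passed without iTgMir483 replicate 1 (-0.64, adjusted p = 0.0133), and without replicate 1 of both groups the adjusted p was 0.0158 at a fold under the limit (-0.52).

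Cyp4b1, better known from lung and for the activation of foreign compounds, was low, with 13.3 to 23.0 CPM in all livers. Controls had 19.1 ± 3.08 CPM and iTgMir483 livers 16.2 ± 2.91 CPM (SD, n = 6), and the groups overlapped. For Cyp4b1 the fit gave -0.23 ± 0.134 (adjusted p = 0.251).

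In order of level per kb in controls, Cyp4a14 (3741 ± 1455 CPM per kb) and Cyp4a10 (2616 ± 1033) came first, with overlapping ranges across livers. Cyp4v3 (57.7 ± 13.3), Cyp4f14 (56.8 ± 25.5), Cyp4a31 (40.2 ± 18.8) and Cyp4a32 (36.4 ± 10.4) followed, and each overlapped the next. Cyp4f13 (16.1 ± 0.706) and Cyp4b1 (8.46 ± 1.37) lay lower, without overlap with each other. With the longest transcript as the length in place of all exons, Cyp4f13 stood at 40.9 CPM per kb, so its place depends on the gene model. Cyp4a12a (3.55 ± 8.09) and Cyp4a12b (0.566 ± 0.963) came last, with means set by control replicate 1.

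**Figure D4:**
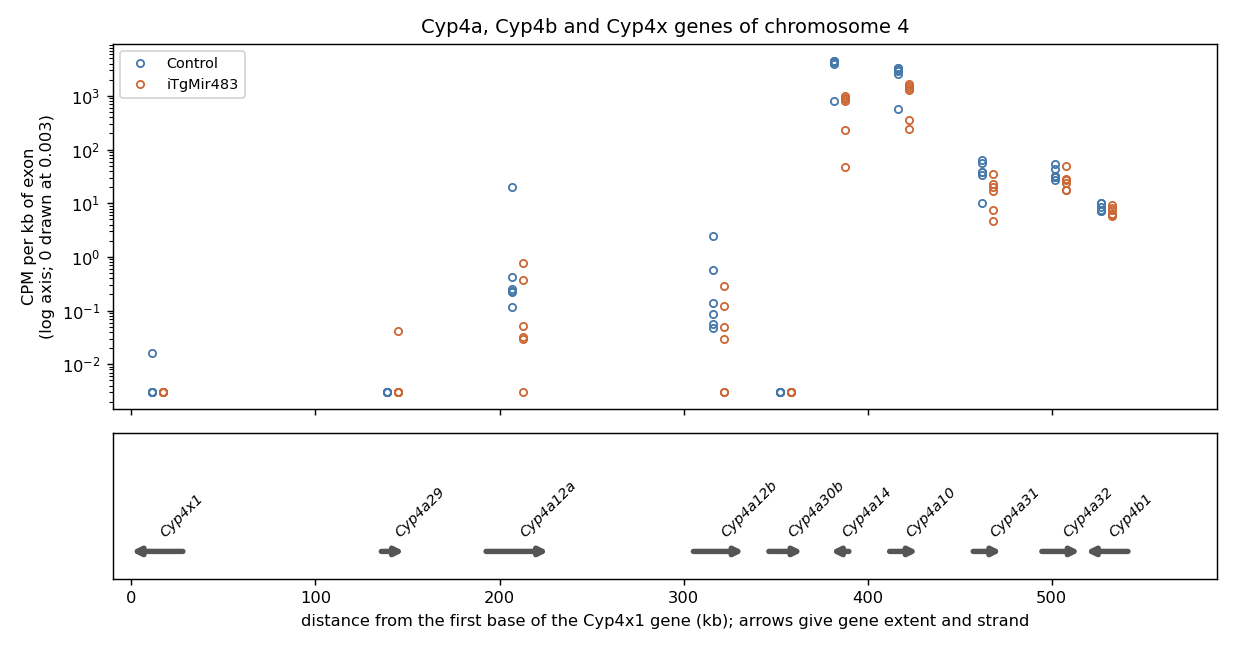
Level in each library (CPM per kb of exon, log axis, 0 drawn at its foot) of the 10 protein-coding Cyp4 genes on chromosome 4, placed by distance in kb from the first base of Cyp4x1, with arrows for gene extent and strand. The levels above 100 CPM per kb belong to the neighbours Cyp4a14 and Cyp4a10, which are transcribed in opposite directions.

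The 10 other protein-coding Cyp4 genes were read beside the members. Of these, 4 passed the filter on low counts. Cyp4f17 fell from 22.9 ± 3.21 CPM to 14.5 ± 2.28 CPM (SD, n = 6), or -0.66 ± 0.121 (adjusted p = 0.00285). Cyp4f16 rose from a low level, from 1.63 to 2.88 CPM in controls to between 3.64 and 8.28 CPM (1.15 ± 0.237, adjusted p = 0.005), with no overlap between groups. Cyp4f15 had a log2 fold change of -0.31 (adjusted p = 0.115), and Cyp4f18, a leukotriene hydroxylase of neutrophils, 0.65 (adjusted p = 0.172). Cyp4f39 had 71 counts in all libraries together, and Cyp4a29, Cyp4a30b, Cyp4f37, Cyp4f40 and Cyp4x1 had at most 1 count each.

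The over-expressed microRNAs were compared with the members' transcripts, since a microRNA acts mainly by pairing of its seed, bases 2 to 8, with sites in 3′ untranslated regions. The RefSeq sequences (GRCm38.p6, chromosome 7, minus strand) are printed with the seed in capitals.

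miR-483-3p: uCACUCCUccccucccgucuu

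miR-483-5p: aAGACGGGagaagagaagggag

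The 7-base site complementary to the seed is AGGAGTG for miR-483-3p and CCCGTCT for miR-483-5p. Neither occurred in the longest annotated 3′ untranslated region of any of the 9 members that have one, which are 89 to 1992 bases long. Over all genes, 10.7% held the site of miR-483-3p and 2.68% that of miR-483-5p. Outside these regions, the first site occurred once in the Cyp4b1 transcript and the second once each in the Cyp4f13 and Cyp4f14 transcripts. RefSeq promoter windows, from 250 bases before to 50 after the start, were held for 5 members (Cyp4a32, Cyp4b1, Cyp4f13, Cyp4f14 and Cyp4v3, 8 starts in all) and not for Cyp4a10, Cyp4a12a, Cyp4a12b, Cyp4a14 and Cyp4a31. In those 8 windows neither the half-site AGGTCA nor its direct repeat with 1 base between, the kind of element PPARα binds, was found on either strand. Of all 32851 windows 16.3% held the half-site and 0.0396% the exact repeat.

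Omega-hydroxylation draws electrons from cytochrome P450 reductase (Por) and cytochrome b5. Of 5 electron donor genes, 0 changed, and Por had 946.9 CPM in controls and 769.5 CPM in iTgMir483 livers (-0.30 ± 0.336, adjusted p = 0.571). The cytochrome b5 reductase gene Cyb5r3 passed as higher without control replicate 1 (0.60 ± 0.150, adjusted p = 0.0141), and without replicate 1 of both groups 0 of 5 passed. The steps after omega-hydroxylation had 24 tested genes with a median of -0.25. Of these, 3 rose and 1 fell, beside 8.41% of all genes higher and 2.73% lower. Without control replicate 1, 3 rose and 4 fell, Acot3 and Acot4 among the latter, against 3.20% of all genes lower. The median was then -0.33. Among those that rose were the acyl-CoA synthetase gene Acsl3 (0.66 on the log2 scale, adjusted p = 0.0307) and Scp2 (0.60, adjusted p = 0.00428), the peroxisomal thiolase and sterol carrier. The alcohol and aldehyde dehydrogenases of this list did not pass, and Aldh3a2, the fatty aldehyde dehydrogenase, had a log2 fold change of -0.42 (adjusted p = 0.174).

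Of 27 PPARα target genes other than the members, 2 fell and 0 rose, beside 2.73% of all genes lower and 8.41% higher. On the log2 scale 22 were below 0, with a median of -0.32. The peroxisome division gene Pex11a fell from 303.0 ± 101.1 CPM to 165.4 ± 38.2 CPM (SD, n = 6), or -0.87 ± 0.240 (adjusted p = 0.0212). Without control replicate 1, the liver with the lowest level of 25 of these genes among controls, 7 of 27 fell, among them Slc22a5, Vnn1, Acot3 and Acot4, against 3.20% of all genes lower. Without replicate 1 of both groups, 4 of 27 fell and Fgf21 rose, against 3.39% of all genes lower. The summed level of the list was 15200 CPM in control replicate 1, 24400 to 30600 CPM in the other controls and 15300 to 23100 CPM in iTgMir483 livers. On the log2 fold change scale the 27 targets ran from -0.87 to 0.79 and Cyp4a14 stood at -2.54.

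Among 15 genes of regulators, 2 fell and 0 rose, beside 2.73% of all genes lower and 8.41% higher. Ppara itself had 230.5 ± 41.3 CPM in controls and 243.9 ± 59.8 CPM in iTgMir483 livers (SD, n = 6), which is 0.08 ± 0.166 (adjusted p = 0.772), and its partner gene Rxra had a log2 fold change of -0.19 (adjusted p = 0.234). The constitutive androstane receptor gene Nr1i3 fell (-1.27, adjusted p = 0.000478).

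Several members act on arachidonate and leukotrienes, so the other genes of that pathway were counted. Of 13 tested, 2 rose and 4 fell, beside 8.41% of all genes higher and 2.73% lower, with a median of -0.08. Leukotriene C4 synthase Ltc4s fell (log2 fold change -1.54), as did the epoxygenase genes Cyp2c23 (-1.08) and Cyp2j5 (-0.83) and the epoxide hydrolase gene Ephx2 (-0.73). The phospholipase gene Pla2g4a (1.04), which frees arachidonate, and the cyclooxygenase gene Ptgs1 (0.69) rose. Without iTgMir483 replicate 4, 1 of the 13 rose and 4 fell.

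Markers of some other cells differed between the groups. All 6 macrophage markers rose (median 1.06), beside 8.41% of all genes higher and 2.73% lower. Their summed level was 253.0 to 362.0 CPM in controls and 395.0 to 1140 CPM in iTgMir483 livers. The highest was iTgMir483 replicate 4, the liver with the least Cyp4a14, and without it 5 of 6 passed with a median of 0.67. With limma-voom 5 of 6 passed as well. The 2 tested neutrophil markers and 3 of 5 bile duct markers rose. Summed over all 6 listed neutrophil markers, controls had 0.684 to 2.58 CPM and iTgMir483 livers 2.22 to 17.0 CPM. Summed over all 5 bile duct markers, controls had 20.9 to 46.1 CPM and iTgMir483 livers 60.7 to 89.1 CPM. Of 2 tested lymphocyte markers 0 passed, with a median of -0.66. Of 7 hepatocyte markers Fgb rose and Cps1 fell, 5 were below 0 and the median was -0.53, beside -0.54 for the tested members. Their sums were 120000 to 168000 CPM in controls and 62600 to 134000 CPM in iTgMir483 livers, lowest in replicates 1 (62600) and 4 (72800), the livers with the least Cyp4a14 of that group. These sums follow mainly Alb, with a mean of 111900 CPM in controls and 76070 CPM in iTgMir483 livers (-0.56, adjusted p = 0.16). Apoa1 stood at 0.19. Of 6 stellate cell markers 0 passed, and without control replicate 1 Col1a1 (1.01, adjusted p = 0.0406) and Col3a1 (adjusted p = 0.00625) rose. Endothelial markers did not pass (0 of 5) with or without that liver. Of 5 blood markers 0 passed in all livers and 1 rose without control replicate 1. Kidney and pancreas, tissues with P450 or secretory genes of their own, left at most 2 counts of any marker, and Kap and Cpa1 were at 0. The adipose markers had at most 2.34 summed CPM. The part of these cells in the Cyp4 values was not tested.

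Within groups, Cyp4a10 and Cyp4a14 were compared across livers on the log2 CPM scale. In controls Pearson's r was 0.986 (exact permutation p = 0.107) and Spearman's rho 0.314 (p = 0.564), and r was 0.26 without control replicates 1 and 2, so the value rests on control replicate 1. In iTgMir483 livers r was 0.848 (exact permutation p = 0.0361, adjusted p = 0.242 over 56 pairs) and rho 0.886 (p = 0.0333, adjusted p = 0.373), and r was 0.971 without replicates 1 and 4. Over all 28 pairs of tested members in both groups, the smallest adjusted p of Pearson's r was 0.0778, reached by Cyp4a32 with Cyp4b1 in controls (r = 0.935) and by Cyp4a10 with Cyp4a31 in iTgMir483 livers (r = 0.968).

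The genes most like Cyp4a14 were sought by the correlation, over 12 libraries, of deviations from the group means. They were Xpo1 (r = 0.962), Fbp2 (0.949), Tspan8 (0.936), Ccdc134 (0.935) and AW146154 (0.933), all of which kept r of at least 0.904 without the livers numbered 1. For Cyp4a12a they were Gabarapl1 (0.962), Enpp5 (0.950), Svil (0.946), Fadd (0.940) and Erlin2 (0.926), for which r fell to between 0.561 and 0.868 without those livers. That check kept iTgMir483 replicate 4, with 123.0 CPM of Cyp4a14 against 2102 to 2559 CPM in the other iTgMir483 livers kept. How far the r values of the Cyp4a14 list rest on that liver was not tested. Both lists were also picked by r over these same libraries. All r values are descriptions over few libraries. Among the 10 genes Tspan8 alone changed between groups (log2 fold change 1.62, adjusted p = 0.0045).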

How the data were processed

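Poly(A) RNA of 12 livers was sequenced with stranded libraries. The table the authors deposited holds raw counts of reads for each gene, taken with STAR on GRCm38 and Ensembl genes; the strand column and the treatment of reads matching several genes are not given in the sources used here. All rows name a gene, and 0 columns were left out. Genes passing edgeR's filterByExpr (13205) were scaled by TMM and tested with the quasi-likelihood test in R 4.3.3 with edgeR 4.0.16 (limma-voom from limma 3.58.1), with no covariate and Benjamini-Hochberg adjustment. Each SE was the absolute log2 fold change over √F. Simulated data were used to check the fit. Log2 CPM for permutation tests and correlations used a prior count of 1. Alternatives included other scalings, filters, DESeq2 1.42.0, limma-voom, a replicate block and leaving livers out. Named genes are all members, the other Cyp4 genes, up to 4 changed genes of each list by size of fold change, the 5 genes most alike, and defining genes of libraries that stand apart. Further genes, such as Por, Ppara, Aldh3a2, Rxra, Cyb5r3, Col1a1, Col3a1, Hsd3b5 and Sult2a1, were named after their values were seen. Some genes that this rule names are not reported here. Members and lists were chosen with earlier results of these data known. Symbols, lengths and transcripts came from GENCODE M21, and promoters and microRNAs from RefSeq. P-values measure the spread between these livers; counts carry no molecular identifiers.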

Additional observations from a re-analysis of the deposited data

Results flagged for a closer look

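In each group of 6 livers the gap between an extreme liver and its nearest neighbour was compared with the whole range, for the 10 members and 5 sums of members, 30 groups in all. The ratio exceeded Dixon's 95% critical value in 11 groups, where chance gives about 1 in 20 (1.5 groups), and the sums repeat their members. Control replicate 1 accounts for 10 of them. It was lowest for Cyp4a14 (ratio 0.828, 2100 CPM against 10200 to 11900 CPM), Cyp4a10 (0.739), the sum of Cyp4a10, Cyp4a31 and Cyp4a32 (0.738), the Cyp4a sum (0.864, 3450 against 16900 to 19000 CPM) and the sum of all members (0.863). It was highest for Cyp4a12a (0.985), Cyp4a12b (0.785), their sum (0.964), Cyp4f14 (0.748, 260.0 against 103.0 to 143.0 CPM) and the Cyp4f sum (0.755). The remaining liver was iTgMir483 replicate 4, highest for Cyp4a32 (0.662, 75.3 against 27.1 to 43.4 CPM).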

How the results depend on the processing

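Cyp4a14 stayed lower and past both limits in all 21 alternatives that test against no change (log2 fold change -2.91 to -2.29, adjusted p 0.000327 to 0.0203), and no member changed sign in any. Against a fold change of 1.5 itself, 226 genes and 0 members passed, and with no limit on fold 2457 genes and 2 members (Cyp4f13 and Cyp4a14). Lower members numbered 2 without the filter on low counts, 3 without replicate 1 of both groups, 3 without the filter and control replicate 1, and 1 to 3 when each liver was left out in turn. The log2 fold change of Cyp4a10 ran from -1.51 to -1.07 and that of Cyp4a31 from -1.48 to -0.98 over the alternatives, with adjusted p of up to 0.126 and 0.162. A block for the replicate number moved the changed genes from 1470 to 1530 and the lower members from 1 to 3 (Cyp4a10, Cyp4a14 and Cyp4a31). Equally numbered livers correlated at 0.0339 to 0.44 once each group mean was removed, with the highest value for the livers numbered 1. Of 12 livers, 3 correlated best with the liver of their own number, so the numbers were not taken to pair the livers. Shared litters were not tested, as the labels do not give them. The correlation of Cyp4a10 and Cyp4a14 in controls was 0.26 without the 2 livers farthest from the median. Precision is limited by 6 livers per group and, for Cyp4a12a and Cyp4a12b, by counts near 0.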
